A study of Mus musculus with 2 samples.

Results

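Microglia with a high level of homeostatic genes were examined in the CD45-positive cells of mouse brain 24 h into a model of neuromyelitis optica spectrum disorder, and they numbered 2471 of the 7768 cells within the quality limits of that library (31.8%, exact 95% binomial interval 30.8 to 32.9%). The series holds 23186 cell barcodes in all, of which 8662 came from the CD45-positive library and 14524 from the CD45-negative library. Both libraries were made from brain of C57BL mice aged 8 to 13 weeks with the NMOSD-like condition, and the cells were divided by CD45, the leukocyte surface protein, with 1 library per subset. The labels give neither the number of mice behind each library nor how the model was induced or the subsets separated. No untreated library was analysed here, so the levels describe dissociated cells of the model and not a response to it.

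Microglia are the resident macrophages of the brain parenchyma. In the undisturbed brain they carry a characteristic set of surface sensors, among them the ADP receptor P2ry12 and the fractalkine receptor Cx3cr1, and their identity depends on TGF-beta and on the CSF1 receptor. Inflammation, injury and the dissociation of tissue are all known to lower these homeostatic genes and to raise chemokines, acute-phase genes or immediate early genes.

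The cells were chosen by their own counts of unique molecular identifiers (UMIs, each standing for 1 captured transcript molecule). A cell needed at least 1000 UMIs with at most 20% mitochondrial UMIs, a sum of P2ry12, P2ry13, Tmem119, Siglech, Gpr34 and Olfml3 of at least 15 UMIs per 10000, and a sum of the complement genes C1qa, C1qb and C1qc of at least 50 per 10000. It could hold at most 2 UMIs of Tnf, fewer than 10 of the neutrophil genes S100a8 and S100a9 and at most 1 of Cd3d, Cd3e and Cd3g, which encode parts of the T-cell receptor complex. The values of these 15 genes chose the cells and are given as a description. The homeostatic sum had a median of 35.7 per 10000 and reached 154, and the C1q sum had a median of 204 per 10000. Tnf was at 0 UMIs in 2024 cells, at 1 in 324 and at 2 in 123.

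The homeostatic sum had no gap at the limit of 15, as the histogram of C1q-positive cells shows. The 64 cells between 15 and 16 per 10000 had a median depth of 8708 UMIs, and the 71 cells between 14 and 15 reached 14.98 with a median depth of 9212 UMIs. In UMIs the median sum was 13.5 just inside the limit and 13 just outside it, so cells near the limit were assigned by 1 or 2 molecules. The homeostatic limit alone left out 879 cells that met every other condition, referred to here as low-homeostatic C1q cells. The Tnf limit alone left out 253 cells, referred to as Tnf-rich microglia.

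**Figure D1:**
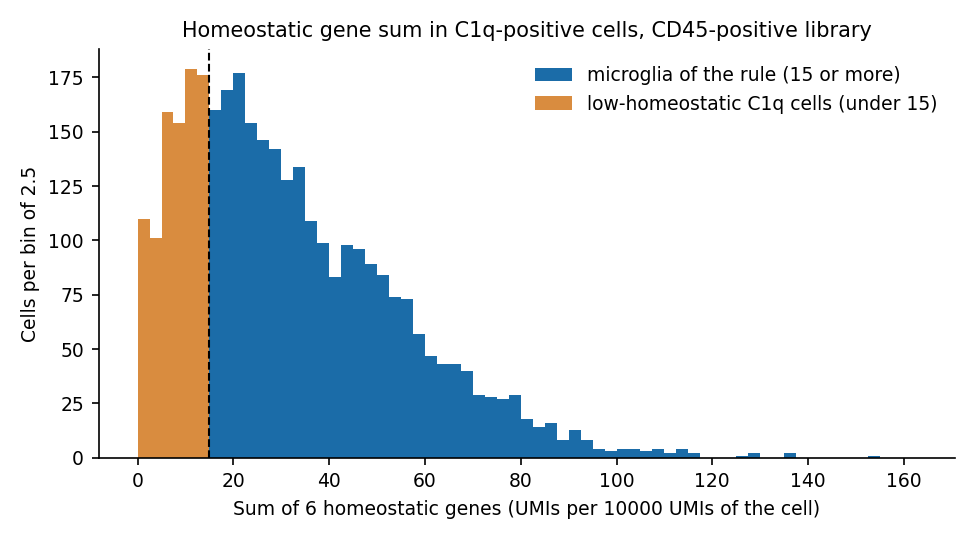
Number of C1q-positive CD45-positive cells (vertical axis, cells per bin of 2.5) by the sum of the 6 homeostatic genes (horizontal axis, UMIs per 10000 UMIs of the cell). Blue bars are the 2471 microglia chosen by the rule and orange bars the 879 low-homeostatic C1q cells, with the limit of 15 as a dashed line; the distribution runs on across the limit.

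The markers behind the label of microglia are genes of the rule. Their shares describe how the cells were chosen and do not test the label. P2ry12 was found in 84.0% of the chosen cells, 42.5% of low-homeostatic C1q cells and 8.07% of T cells of the same library, which should lack it, at median depths of 8587, 7454 and 5422.5 UMIs. After each cell was thinned to 1000 UMIs, the shares were 37.0%, 8.08% and 2.02%. Tmem119 was found in 92.2%, 64.4% and 13.1% of these cells, Siglech in 84.2%, 37.2% and 6.39%, and Gpr34 in 83.2%, 43.3% and 9.02%. C1qa was found in every chosen cell and in 74.2% of T cells, where its level was 246 CPM (UMIs of a gene per 1000000 UMIs of the cells), against 8581 CPM in the microglia, so a few C1qa UMIs in a cell are within the background of free RNA.

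Genes outside the rule are described next, though in cells chosen this way none is independent of it. Against the other 5297 cells of the library 24.4% of 14788 genes were apart by 2-fold or more, 5.46% higher in the microglia and 19% lower. Cx3cr1 stood at 3287 CPM in the microglia and 86.2 CPM in T cells, and Sall1, a transcription factor that among brain macrophages marks microglia, at 175 and 4.74 CPM. The CSF1 receptor gene Csf1r was found in 98.5% of the microglia. The T cells were chosen to hold no UMI of it. That choice left out T cells in which this microglial RNA was counted, so their levels may understate free RNA. Apart from mitochondrial and ribosomal protein genes, the most abundant transcripts in this 3′ assay were Malat1 at 20680 CPM, a nuclear long non-coding RNA, Tmsb4x at 19230 CPM, an actin-binding peptide, and Cst3 at 17420 CPM, an inhibitor of cathepsins. Actb, C1qa, Fth1, C1qb, Gm42418, C1qc, the cathepsin gene Ctss, the chemokine gene Ccl12, Fau, Cx3cr1 and Tpt1 were among those that followed, between 9680 and 3259 CPM.

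The microglia held 26067521 of the library's 76182401 UMIs, with 1002 to 66543 UMIs and a median of 2928 genes per cell. Each comparison below sets cells of a single library against other cells and has no replicate check, so no p-value is given. The intervals are exact and cover counting error only. Scrublet called 19 of the microglia (0.769%) as doublets and 154 of the 7768 cells (1.98%), under the assumed rate of 6.93%. Of the cell barcodes within the limits, 18 stood in both libraries. Among the microglia of the rule, 5 had a barcode that also stood in the CD45-negative library, within its limits or not.

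A pair of opposed genes frames the results: P2ry12, which is part of the rule, and Saa3, an acute-phase serum amyloid A gene outside it whose level ran the other way across C1q-positive cells. P2ry12 lies on chromosome 3 of mm10 (59216272 to 59262871, minus strand) and Saa3 on chromosome 7 (46711998 to 46715700, minus strand). The promoters are shown as the stretches held by RefSeq for GRCm38.p6, 250 bases before to 50 after the start of the gene, at chr3:59262936-59263235 and chr7:46715627-46715926, both on the minus strand. RefSeq starts P2ry12 further upstream than the gene annotation of mm10 above, so that this stretch lies wholly upstream of the annotated gene. Capitals mark matches on either strand to TTNNGCAA, a motif of the C/EBP type, which regulates acute-phase genes.
P2ry12: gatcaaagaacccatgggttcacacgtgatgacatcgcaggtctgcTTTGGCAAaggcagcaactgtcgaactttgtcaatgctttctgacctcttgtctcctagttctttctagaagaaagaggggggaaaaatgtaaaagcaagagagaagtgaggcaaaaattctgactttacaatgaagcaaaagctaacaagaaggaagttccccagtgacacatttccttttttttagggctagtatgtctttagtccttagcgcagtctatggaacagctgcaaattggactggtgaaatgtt
Saa3: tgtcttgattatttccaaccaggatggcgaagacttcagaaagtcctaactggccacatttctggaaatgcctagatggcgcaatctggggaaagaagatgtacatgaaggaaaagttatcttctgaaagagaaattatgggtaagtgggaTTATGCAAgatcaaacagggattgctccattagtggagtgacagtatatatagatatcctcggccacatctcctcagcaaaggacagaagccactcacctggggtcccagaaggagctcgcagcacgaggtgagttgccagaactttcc
Each promoter held 1 match. The motif was found in 3547 of 32851 RefSeq promoters of this length (10.8%). The exact string GAGGAA, a form of the PU.1-type site, was in neither promoter shown and in 28.3% of all. Each motif was sought on both strands. Looser forms of either site were not counted, so the absence covers these letters alone. A match describes letters and is not evidence of a bound site.

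Across all C1q-positive cells that met the other conditions, microglial identity genes outside the rule stood higher at each step of the homeostatic sum. In the bins 0 to 5, 5 to 10, 10 to 15, 15 to 20, 20 to 30, 30 to 40 and 40 or more per 10000, which held 211, 313, 355, 329, 619, 470 and 1053 cells, Cx3cr1 was at 1007, 1499, 1772, 2108, 2754, 3388 and 4088 CPM. Csf1r stood between 610 CPM in the lowest bin and 2379 CPM in the highest, Sall1 between 35.8 and 245 CPM, and Tgfbr1, a TGF-beta receptor subunit, between 119 and 588 CPM. Slc2a5, the fructose transporter gene that is typical of microglia, covered the widest range, from 2.70 CPM in the lowest bin to 154 CPM in the highest. Summed over 32 homeostatic genes outside the rule, the level was 18160 CPM in the lowest bin and 54200 CPM in the highest, and that of the lysosome and cathepsin list 17900 and 33630 CPM. The bins were cut from the same cells, so the steps are a description.

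Several inflammatory genes, and Fth1, ran against the homeostatic sum, with different shapes. Saa3 stood at 3699, 1811, 1109, 353, 477, 238 and 119 CPM over the 7 bins, and differed most by fold between the last bin below the limit and the first above it. Ccl12, which encodes a monocyte-attracting chemokine, was highest in the second bin at 7552 CPM and lowest in the last at 2266 CPM. Spp1, the gene of the matrix protein osteopontin, peaked at 707 CPM in the second bin and reached 47.7 CPM in the last. Ifitm3, an interferon-induced membrane protein gene, stood at 1557 CPM in the lowest bin and 241 CPM in the highest, and Fth1, the ferritin heavy chain gene, at 19410 and 5483 CPM. The chemokine list summed to 13580 CPM in the lowest bin and 3181 CPM in the highest, and the damage-associated list to 35220 and 20220 CPM.

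Immediate early genes and MHC class II genes did not run in step with the homeostatic sum. The immediate early list was at 4141 CPM in the lowest bin, at its lowest, 2568 CPM, in the bin from 10 to 15, and at 3429 CPM in the highest. The MHC class II list was at 2783 CPM in the lowest bin, 2926 CPM between 15 and 20, 1272 CPM between 20 and 30, 1699 CPM between 30 and 40, and 917 CPM above 40. Median depth was 4804 UMIs in the lowest bin, between 6605 and 10006 UMIs in the next 5 and 7611 UMIs in the highest.

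**Figure D2:**
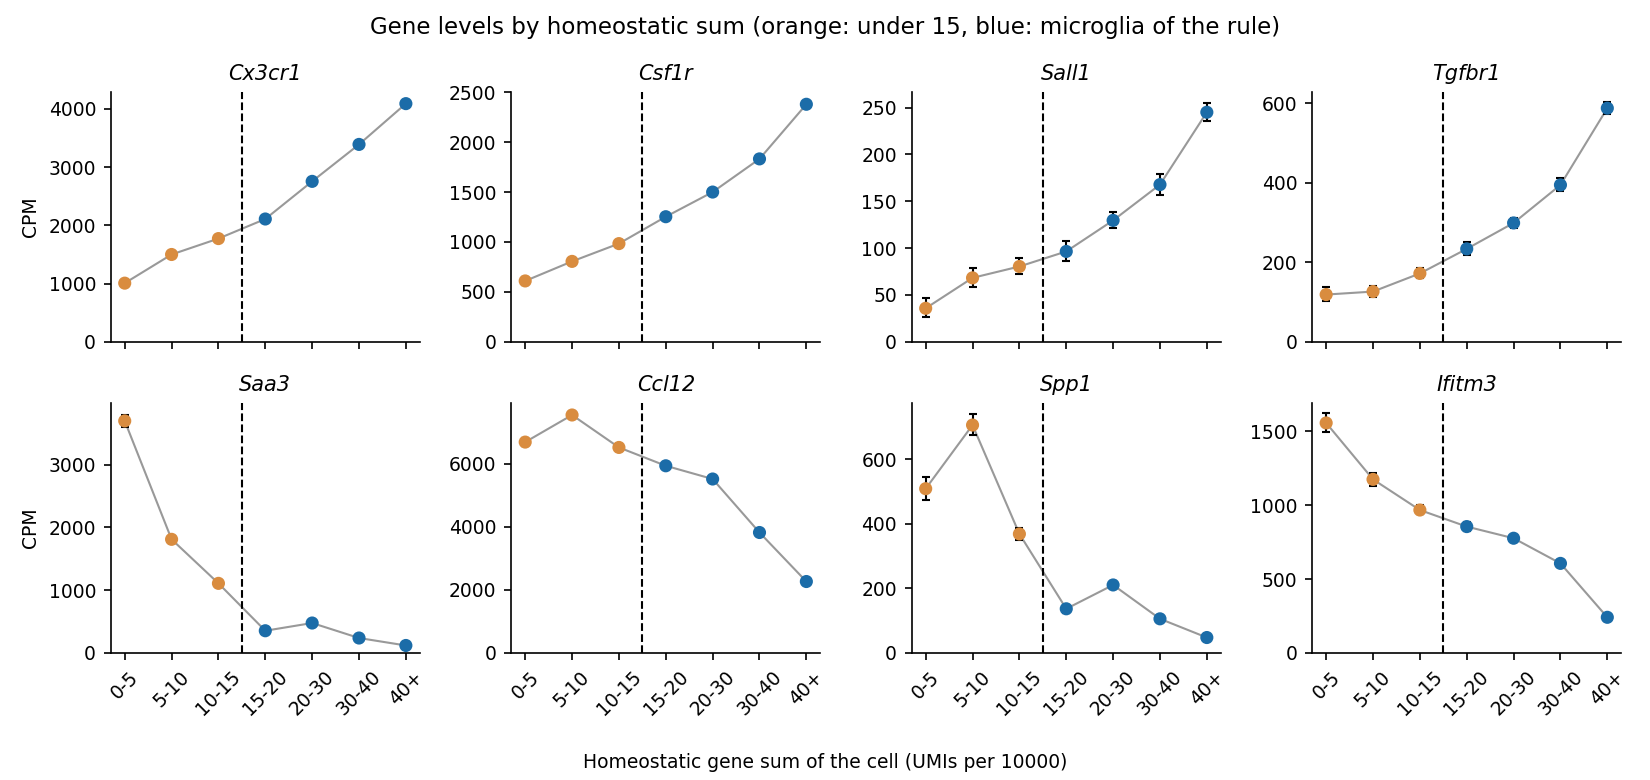
Level of 8 genes (vertical axes, CPM, linear from 0, separate for each gene) in 7 bins of the homeostatic sum (horizontal axis, UMIs per 10000), with exact 95% Poisson intervals. Orange points are low-homeostatic C1q cells and blue points the microglia of the rule, divided by the dashed line; Cx3cr1, Csf1r, Sall1 and Tgfbr1 climb over all bins, while Saa3 is at 3699 CPM in the lowest bin and 119 CPM in the highest.

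Set against the 879 low-homeostatic C1q cells, the microglia had higher levels of homeostatic genes outside the rule and of sensing and TGF-beta genes, and lower levels of chemokines, acute-phase genes, MHC class II genes and markers of border macrophages and monocytes. Of 12546 genes with at least 20 UMIs in the 2 sets together, 13.8% differed by 2-fold or more, 11.3% (1419) being higher in the microglia and 2.45% (307) lower. The comparison is cut from the rule's own measure, so these counts describe it. The median gene was 0.32 higher on the log2 scale in the microglia, and ratios are to be read against that shift. With the sets scaled by the median of ratios the split was 739 higher and 507 lower, and by the TMM method 791 and 478.

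Homeostatic genes outside the rule were higher in the microglia throughout: 32 of 32 had a positive ratio, 17 by 2-fold or more, with a median of 1.10 on the log2 scale, or 14 and 0.85 under TMM scaling. Selplg, the gene of a selectin ligand, was at 1007 CPM in the microglia and 267 CPM in low-homeostatic C1q cells, a ratio of 3.77 (3.61 to 3.94). Slc2a5 was at 90.7 and 10.9 CPM, 8.34-fold apart (6.74 to 10.4). Sparc, a matrix-binding glycoprotein gene, was at 1271 and 396 CPM, Ltc4s, which makes leukotriene C4, at 303 and 89.7 CPM, and Mertk, a receptor for apoptotic cells, at 274 and 111 CPM. Cst3 and Ctss, both abundant, differed less, at 17420 and 10740 CPM and at 4205 and 2646 CPM.

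Receptors and enzymes that read the tissue moved with them. Of 25 purinergic and sensing genes, 10 were higher by 2-fold or more and 1 lower, with a median of 0.85 (3 higher and 2 lower under TMM scaling, median 0.61). Cx3cr1, Csf1r, Tgfbr1, Entpd1 and Cd33 stand in this list and in the homeostatic one. Entpd1, the ectoenzyme CD39 that degrades extracellular ATP, was at 146 CPM in the microglia and 40.7 CPM in low-homeostatic C1q cells, Adora3, an adenosine receptor gene, at 106 and 45.9 CPM, and Cd33, a sialic acid receptor gene, at 125 and 38.7 CPM. Of 13 TGF-beta pathway genes 12 were higher, 3 of them by 2-fold or more: Tgfbr1 at 416 and 148 CPM, the inhibitory Smad7 at 198 and 74.5 CPM and the integrin subunit Itgav at 113 and 56.3 CPM. The median of this list was 0.66, and under TMM scaling 2 genes were higher by 2-fold or more and 1 lower. The lysosome and cathepsin list was nearer to all genes. It had 21 of 24 genes higher, but 1 of 24 by 2-fold or more, against 11.3% of all genes. Its median was 0.44, against 0.32 for all genes, and 0.19 under TMM scaling, against 0.08.

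Of 29 listed transcription factors, 3 were higher by 2-fold or more. Sall1 was at 175 CPM in the microglia and 68.4 CPM in low-homeostatic C1q cells, Mef2a at 437 and 207 CPM, and Bhlhe41, a helix-loop-helix repressor gene, at 218 and 86.2 CPM. The median of that list was 0.32, the same as that of all genes. Fc receptors, 10 genes, had none apart by 2-fold and a median of 0.27.

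Chemokine and acute-phase genes were lower in the microglia, and cytokine genes were mixed. Of 20 chemokines, 10 were lower by 2-fold or more and 3 higher, with a median of -0.997: Ccl2 was at 361 CPM in the microglia and 868 CPM in low-homeostatic C1q cells, Ccl5, which T cells of the library held at 4568 CPM, at 312 and 944 CPM, Ccl4 at 275 and 661 CPM and Ccl12 at 4026 and 6880 CPM. The 3 higher ones were Ccl24, Cxcl1 and Cxcl3, and none was higher by 2-fold or more when the 119 cells of a cluster rich in monocyte genes, described below, were left out. Among 17 acute-phase genes, 7 were lower and 1 higher (median -0.90). Saa3 was at 277 CPM in the microglia and 1806 CPM in low-homeostatic C1q cells, 6.51-fold lower, and was found in 22.4% and 33.5% of the cells, against 9.89% of T cells. Lcn2, an iron-scavenging lipocalin gene, was at 35.8 and 90.2 CPM, and Marco, a scavenger receptor gene, at 63.1 and 179 CPM.

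Damage-associated genes were mostly lower, with exceptions. Of 27, 8 were lower by 2-fold or more and 1, Trem2, was higher, with a median of -0.60. A negative ratio was found in 17 of the 27. Under TMM scaling 11 were lower by 2-fold or more and none higher, with a median of -0.85. In cells with at least 20 Malat1 UMIs per 10000, 12 were lower and 1 higher. Spp1 was at 118 CPM in the microglia and 502 CPM in low-homeostatic C1q cells, Lgals3, the gene of galectin-3, at 103 and 274 CPM, and Fabp5, a fatty acid carrier gene, at 37.3 and 110 CPM. Apoe was at 529 and 863 CPM, and Fth1 at 7771 and 13920 CPM. Without the monocyte-gene cluster, Lgals3 was at 32.9 CPM, Fabp5 at 15.6 CPM and Apoe at 315 CPM in the microglia. Trem2, a lipid-sensing receptor that the damage-associated state depends on in mouse models, was at 1101 and 550 CPM, just at 2-fold, and under it with TMM scaling. Cd68, a lysosomal membrane protein gene, was at 483 and 479 CPM.

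Immediate early genes had 1 of 23 lower by 2-fold or more and a median of 0.05, under the 0.32 of all genes. Under TMM scaling 3 were lower and the median was -0.20. In cells with at least 20 Malat1 UMIs per 10000, 4 were lower and the median was -0.53, against 0.13 for all genes. Of 27 interferon-stimulated genes, 2 were lower and none higher, with a median of -0.48, and 23 of 27 had a negative ratio. The lower count was 7 under TMM scaling, 9 without the monocyte-gene cluster and 8 in cells with at least 20 Malat1 UMIs per 10000. Of 20 cytokine genes, 2 were higher by 2-fold or more and 2 lower, with a median of 0.20 (-0.05 under TMM scaling) and sums of 961 CPM in the microglia and 730 CPM in low-homeostatic C1q cells. The 2 higher ones were Il1a, the gene of interleukin-1 alpha, at 69.2 and 30.8 CPM, and Csf2, with 2 UMIs in the low-homeostatic cells.

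The genes with the largest ratios were mostly rare. Besides Saa3, those lower in the microglia included Sct, the secretin gene, at 0.537 CPM and 12.1 CPM in low-homeostatic C1q cells, the lectin gene Mgl2 at 1.80 and 20.7 CPM, the chemokine gene Ccl17 at 1.11 and 11.4 CPM, and Lyve1, a hyaluronan receptor of border macrophages, at 1.15 and 9.77 CPM. Ccl8, Gpnmb, Timd4, Cd209d and Folr2 completed the 10, each found in under 3% of either set. Sct was found in 0.162% of the microglia and 0.228% of low-homeostatic C1q cells and Ccl17 in 0.324% and 0.455%, so single cells set these ratios, and both changed direction when the homeostatic limit was set at 10 (log2 ratios of 3.90 and 2.40). Those higher in the microglia were Syt6, Tet1, Cep112it, Bsn, Nfib, Tmem44, Slc2a5, Ache, Myom1 and Cmya5, and of these Slc2a5 and Tmem44 (16.04 and 1.86 CPM) had 15 or more UMIs in the low-homeostatic cells.

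Markers of other macrophages moved with this comparison. The 12 border macrophage genes summed to 318 CPM in the microglia and 455 CPM in low-homeostatic C1q cells, with 9 lower by 2-fold or more, Mrc1 at 17.0 and 34.9 CPM and Cd163 at 1.80 and 9.03 CPM. The 14 monocyte genes summed to 755 and 1427 CPM, with 5 lower, Ccr2 at 40.6 and 83.9 CPM and Arg1 at 44.4 and 165.2 CPM. None of either list was at 0 UMIs in either set. Of 13 MHC class II genes 6 were lower, Cd74 at 463 and 988 CPM and H2-Aa at 145 and 371 CPM. Without the monocyte-gene cluster in the microglia, and with the low-homeostatic set unaltered, the monocyte list was at 205 CPM with 14 of 14 lower by 2-fold or more, Arg1 at 4.96 CPM, Ccr2 at 8.51 CPM, Cd74 at 122 CPM and H2-Aa at 23.2 CPM. That cluster was picked as the one richest in the monocyte list and was left out of the microglia alone. The lower monocyte values were therefore fixed by this choice and are no further result. The part of monocyte-gene cells in the other differences was not tested.

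The nuclear RNAs Malat1 and Xist moved with it as well, and Neat1 ran the other way. Cells under 20 Malat1 UMIs per 10000 made up 12.1% of the microglia (300 cells) and 44.4% of low-homeostatic C1q cells (390). Xist, which like Malat1 is retained in the nucleus, was at 2024 CPM in the microglia and 1183 CPM in low-homeostatic C1q cells, whereas Neat1, a nuclear RNA of paraspeckles, was at 86.5 and 138 CPM. When cells under that level were left out of both sets, a choice made after seeing the data, 753 genes were higher by 2-fold or more and 555 lower, and the median of all genes was 0.13. The homeostatic genes outside the rule then had 15 of 32 higher with a median of 0.98, the chemokines 11 of 20 lower with a median of -1.21, and the acute-phase genes 11 of 17 lower with a median of -1.31. Saa3 had a log2 ratio of -2.31 and Slc2a5 one of 3.19 among these cells. Sensing genes had 6 of 25 higher and 4 lower, and the TGF-beta list 1 higher and 1 lower. For both lists the higher count was thus smaller there and the lower count larger. Their medians were 0.48 and 0.52.

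**Figure D3:**
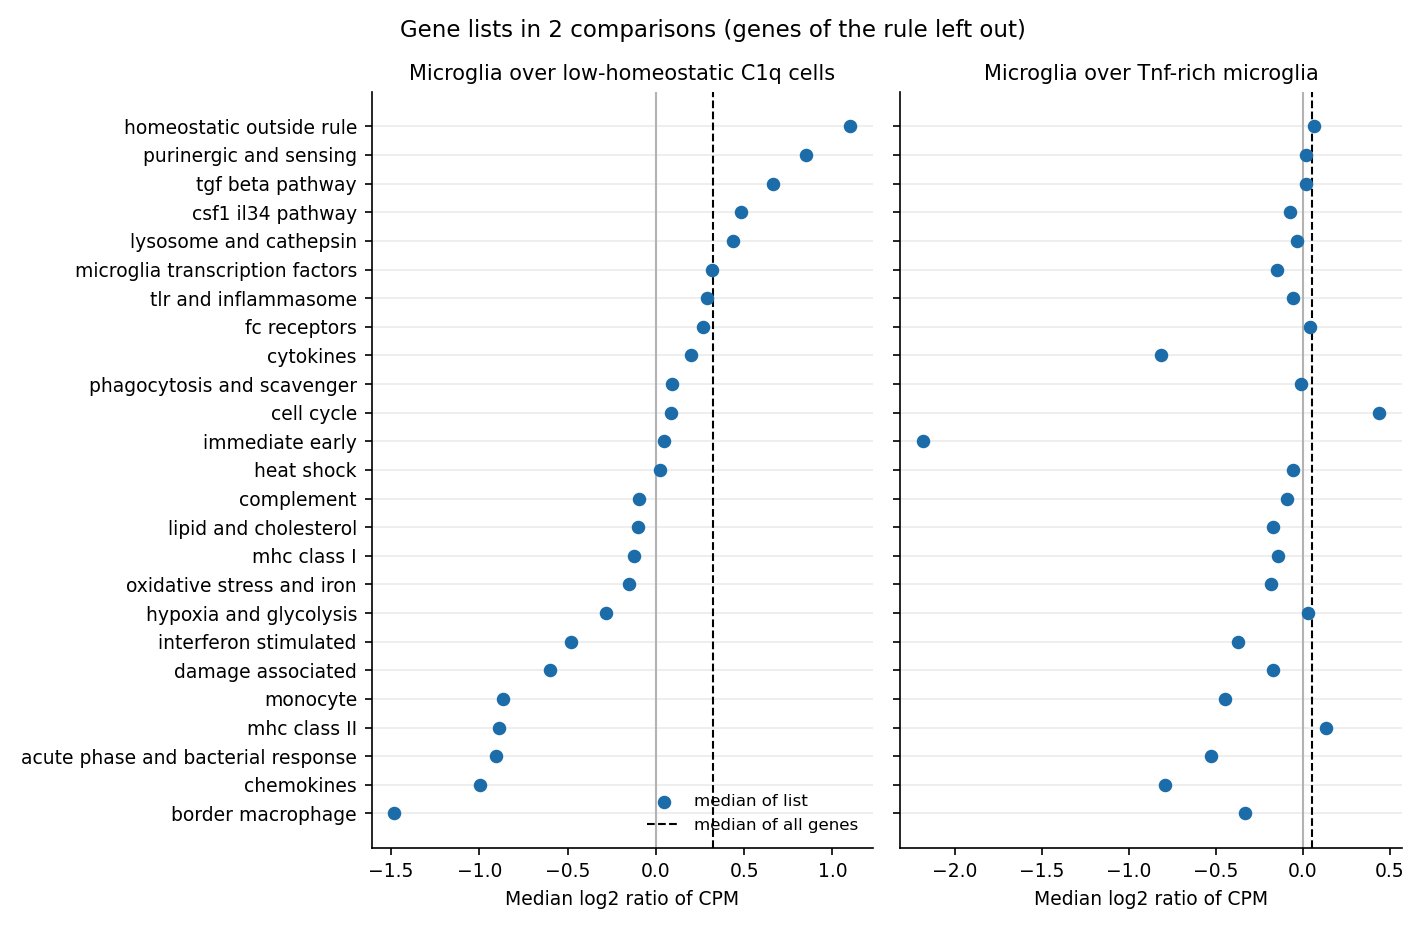
Median log2 ratio of CPM (horizontal axes) for 25 gene lists (rows), with the microglia over low-homeostatic C1q cells on the left and over Tnf-rich microglia on the right; genes of the rule are left out, the dashed line is the median of all genes and the grey line marks a ratio of 1. The homeostatic list is at 1.10 on the left and 0.06 on the right, and the immediate early list at 0.05 and -2.18.

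The microglia differed most among themselves in Malat1, in chemokine and acute-phase genes and in MHC class II genes. In the 2094 cells with at least 2000 UMIs, each thinned to 2000, the variance of UMIs over their mean (Fano factor, near 1 for counting noise alone) had a median of 1.05 over 5576 genes. It was 35.0 for Malat1, 14.3 for Saa3, 13.98 for Cd74, 11.6 for Ccl12, 11.5 for Apoe and 9.87 for Ccl4. Saa3 had a median of 0 UMIs and a maximum of 67 and was found in 11.2% of the thinned cells, whereas Ccl12 was found in 89.6% with a median of 4 UMIs. Fabp5, Ccl5, Spp1, H2-Ab1, H2-Aa, Lyz2, Cxcl2, H2-Eb1, Ifitm1 and Ccl3 were also among the highest 20, as were the abundant Gm42418, Cst3, Fth1 and Tmsb4x.

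Clustering of the microglia alone gave 6 clusters of 1046, 571, 332, 296, 119 and 107 cells. The genes named for each took part in the clustering and describe it. Cluster 1, 42.3% of the cells, held the highest homeostatic sum, a median of 51.1 per 10000, and the lowest depth, a median of 5410 UMIs. In it P2ry12 was at 810 CPM, against 353 CPM in the other microglia, Saa3 at 51.2 and 366 CPM, and Ccl12 at 1774 and 4913 CPM. Cluster 2 had Pclaf and Mcm10, which serve DNA replication, among its leading genes, at 53.5 and 14.5 CPM, and the mitotic gene Mki67 at 21.2 CPM, within the range of 11.8 to 30.7 CPM over all clusters. Pclaf was not particular to cluster 2. It was among the leading genes of cluster 3 as well, at 64.5 CPM, with the cell cycle genes Birc5 at 26.7 CPM and Rrm2 at 19.6 CPM.

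Cluster 3 was low in the nuclear RNAs Malat1 and Xist. Malat1 was at 759 CPM in its 332 cells and between 15840 and 31550 CPM in the other clusters, and Xist at 33.1 CPM, against 1501 to 3109 CPM. Of the 300 microglia under 20 Malat1 UMIs per 10000, 299 belonged to it. Cx3cr1 was at 1340 CPM there, against 2514 CPM or more in the others, and its leading gene, the B-cell-attracting chemokine Cxcl13, at 86.8 CPM in 4.82% of its cells. Its median mitochondrial share was 1.84% and its median depth 8245 UMIs.

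Cluster 4 was rich in some acute-phase and chemokine genes. Its 296 cells, 11.98% of the microglia, held 48.9% of their Saa3 UMIs, 49.0% of Marco and 43.5% of Ccl5. The cluster held 4765822 of the 26067521 UMIs of the microglia, a larger share than its share of cells. Saa3 was at 742 CPM in it and 173 CPM in the other microglia, Slpi, a protease inhibitor gene, at 46.2 and 6.62 CPM, and Acod1, which makes itaconate in activated macrophages, at 24.97 and 2.86 CPM. Its homeostatic sum had a median of 31.5 per 10000, against 35.7 in all the microglia.

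Cluster 5 was small but held most of several genes. Its 119 cells, 4.82% of the microglia, held 85.5% of their H2-Aa UMIs, 76.1% of Cd74, 89.9% of Arg1, 81.0% of Ccr2 and 54.2% of Lyz2. The cluster held 2455378 of the 26067521 UMIs of the microglia, again a larger share than its share of cells. Ccr2, the chemokine receptor of inflammatory monocytes, was found in 79.8% of its cells and 6.51% of the others, and the monocyte list summed to 6048 CPM in it, against 168 to 292 CPM in the other clusters. P2ry12 was at 370 CPM and Tmem119 at 614 CPM in the same cells. Their median depth was 19881 UMIs, Scrublet called 4 of them, and the medians of the homeostatic and C1q sums were 24.97 and 133 per 10000. At the finer resolution all 119 cells fell into 1 cluster of 124. Monocyte-derived cells, paired droplets and free RNA cannot be told apart here, so the levels of the main genes that rest on these cells are given with and without them, but the bins of the homeostatic sum and the Fano factors include them.

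Cluster 6 held the immediate early genes. In its 107 cells, 4.33% of the microglia, the list summed to 15200 CPM, against 2753 CPM in the other microglia. The transcription factor genes Egr1 and Klf2 were at 555 and 25.8 CPM and at 573 and 29.6 CPM, and the chemokine gene Ccl4 at 1368 and 222 CPM. The homeostatic sum had a median of 36.7 per 10000, close to that of all the microglia.

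**Figure D4:**
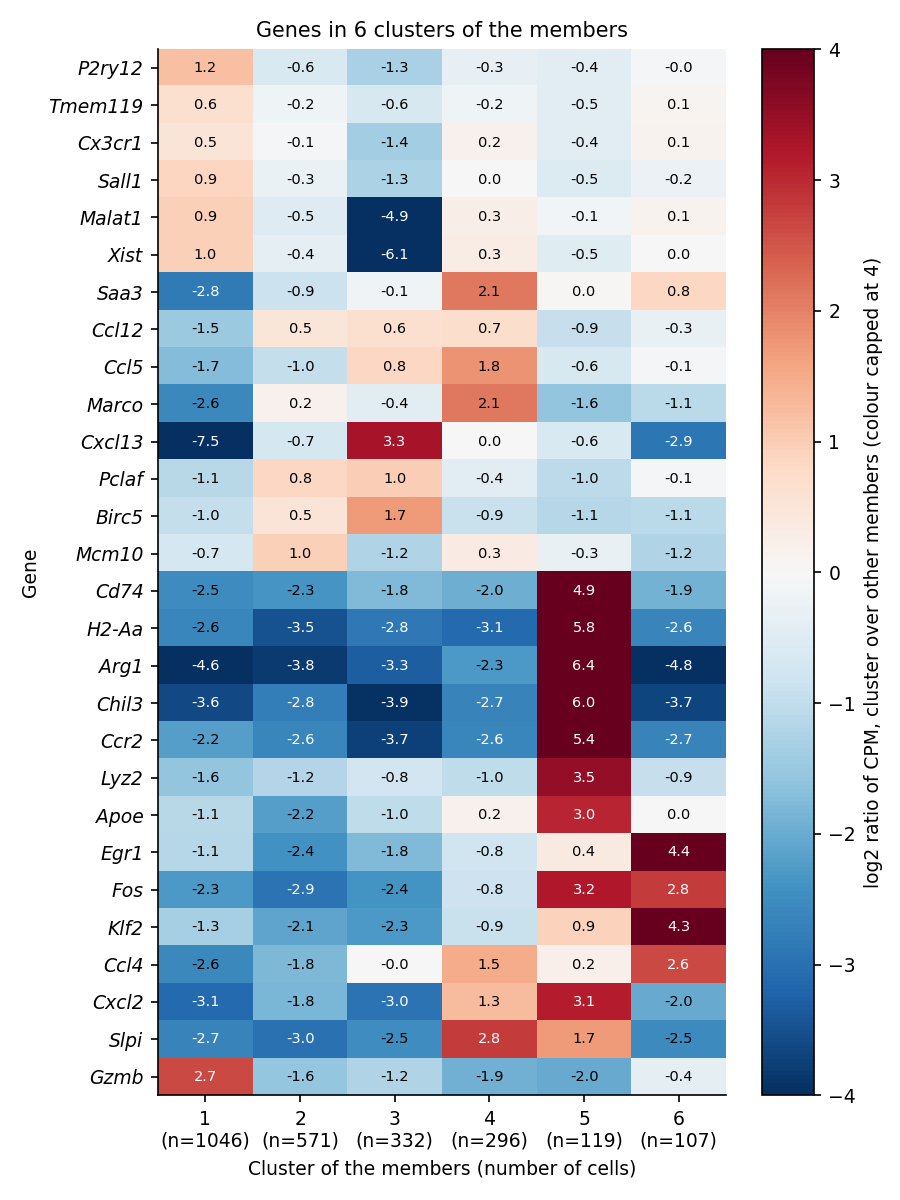
Log2 ratio of CPM between each of the 6 clusters and the other microglia (colour, capped at 4 either way, value printed) for 28 genes (rows); columns give the cluster and its number of cells. Malat1 and Xist are low in cluster 3, Saa3 and Marco high in cluster 4, Cd74, H2-Aa, Arg1 and Ccr2 high in cluster 5, and Egr1 and Klf2 high in cluster 6.

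The 253 Tnf-rich microglia met the same limits for homeostatic and C1q genes. They differed from the chosen microglia most in immediate early genes, and also in chemokine, cytokine, acute-phase and interferon-stimulated genes. Homeostatic genes were at like levels. Of 12489 genes, 5.28% were apart by 2-fold or more, 2.99% (374) higher in the chosen microglia and 2.29% (286) lower, with a median of 0.05. Tnf itself, at 21.9 CPM in the chosen microglia and 533 CPM in the Tnf-rich ones, was set by the rule. Median depth was 8587 UMIs in the chosen microglia and 21136 UMIs in the Tnf-rich ones.

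Immediate early genes, which cells switch on within minutes of a stimulus, were lower in the chosen microglia in 24 of 24 cases, 21 of them by 2-fold or more, with a median of -2.18. Egr1 was at 50.3 CPM in the chosen microglia and 519 CPM in the Tnf-rich ones, 10.3-fold lower, and was found in 3.68% and 36.0% of cells thinned to 1000 UMIs, against 3.84% of T cells. T cells are no background for these genes, since they held the list at 4379 CPM themselves, against 3328 CPM in the chosen microglia. Atf3, a stress-induced factor gene, was at 63.0 and 473 CPM, Nfkbiz, an NF-kappa-B co-regulator gene, at 35.9 and 238 CPM, and Fos at 121 and 721 CPM. Among 20 chemokines 9 were lower and 2, Ccl17 and Ccl22, higher, neither of them so without the monocyte-gene cluster. Ccl4 was at 275 and 1841 CPM, Ccl3 at 119 and 654 CPM, and the interferon-induced Cxcl10 at 88.0 and 372 CPM. Of 21 cytokine genes 10 were lower and none higher, with Il1a at 69.2 and 222 CPM and Il1b at 113 and 251 CPM. Acute-phase genes were lower in the chosen microglia in 17 of 17 cases, 6 by 2-fold or more, with a median of -0.53. Interferon-stimulated genes were lower in 27 of 27 cases, 3 by 2-fold or more, with a median of -0.37.

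Homeostatic genes outside the rule had a median of 0.06 in this comparison. Of 32, 1 was apart by 2-fold, Rhob, an immediate early gene as well, at 424 CPM in the chosen microglia and 892 CPM in the Tnf-rich ones. Cx3cr1 was at 3287 and 3496 CPM, Csf1r at 1858 and 1829 CPM and Saa3 at 277 and 540 CPM. Cell cycle genes were higher in 23 of 24 cases in the chosen microglia, 6 by 2-fold or more, with Birc5 at 10.2 and 4.02 CPM. Among cells with at least 13327 UMIs, 692 of the chosen microglia and 190 of the Tnf-rich ones, with median depths of 19087 and 24669 UMIs, the log2 ratio was -3.32 for Egr1, -2.56 for Atf3 and -2.36 for Ccl4. The largest ratio, that of Tcap, a sarcomere gene, at 0.192 and 10.3 CPM, rested on 5 of the 253 Tnf-rich cells.

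The same conditions applied to the CD45-negative library found 27 of 12881 cells (0.210%, 0.138 to 0.305%), against 31.8% in the CD45-positive library. These cells held the homeostatic genes at like levels, together with RNA of astrocytes and oligodendrocytes. Of 10764 genes 16.8% were apart by 2-fold or more, 7.22% higher in the CD45-positive microglia and 9.55% lower, most of them counted in few molecules, because the 27 cells hold 331127 UMIs in all. Over the 3120 genes with 20 UMIs found or expected in the CD45-negative cells, 3.49% were apart, 1.41% (44) were higher in the CD45-positive microglia and 2.08% (65) lower, with a median of 0.03. Of 31 homeostatic genes outside the rule, 1 was apart by 2-fold, the lens crystallin gene Crybb1 at 178 CPM in CD45-positive and 78.5 CPM in CD45-negative cells. Ptprc, which encodes CD45, was at 477 CPM in the CD45-positive microglia and 411 CPM (345 to 486) in the 27 CD45-negative cells.

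Astrocyte and oligodendrocyte genes were lower in the CD45-positive microglia. Of 10 astrocyte genes 9 were lower by 2-fold or more, and the list of 12 summed to 375 CPM in CD45-positive and 2259 CPM in CD45-negative cells, with none at 0 UMIs in either. Slc1a2, the astrocyte glutamate transporter gene, was at 4.07 and 580 CPM. The 12 oligodendrocyte genes summed to 504 CPM in CD45-positive and 1661 CPM in CD45-negative cells, with 3 of the 4 counted genes lower by 2-fold or more. The heat shock genes Hspa1a and Hspa1b were at 97.98 and 414 CPM and at 125 and 441 CPM, and Apoe at 529 and 1274 CPM. Saa3 was at 277 and 2241 CPM, but in the CD45-negative set it was found in 22.2% of 27 cells, so few cells set that level. The part of astrocyte RNA in Apoe and the other differences was not tested.

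MHC class II and monocyte genes were higher in the CD45-positive microglia. H2-Ab1 was at 176 CPM in CD45-positive and 6.04 CPM in CD45-negative cells, and H2-Aa at 145 CPM and 0 UMIs, at least 15.96-fold higher by a floor of 3 UMIs over the 27 cells. Of the 14 monocyte genes, 10 were at 0 UMIs in the CD45-negative cells, and Ccr2 was one of them. Without the monocyte-gene cluster H2-Ab1 was at 30.1 CPM in the CD45-positive microglia, H2-Aa at 23.2 CPM and Ccr2 at 8.51 CPM. A floor of 9.06 CPM in the CD45-negative cells means that at this depth no difference in Ccr2 was then detectable.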

How the data were processed

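A pair of droplet single-cell libraries, 1 of CD45-positive and 1 of CD45-negative mouse brain cells, were analysed. The deposited values are whole-number UMI counts per gene and cell that, per the file headers, the authors made with Cell Ranger 6.1.2, on mm10, per the submitters' processing notes, and the labels give no annotation release. The libraries held 76182401 and 92691820 UMIs over 32285 genes. The members and lists were chosen with earlier results of these data known.

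Summed counts of each set of cells were scaled to CPM. Their 95% intervals (exact Poisson for levels, exact binomial for shares and ratios) cover counting error only. With 1 library per group no test was made, and a difference of 2-fold or more is counted. Genes needed 20 UMIs in both sets together. A set at 0 UMIs was given a floor of 3 UMIs. Shares of cells at equal depth used 1000 UMIs drawn from every cell. T cells (3 or more Cd3 UMIs and no Csf1r UMI, 1486 cells) served as the background of free RNA for genes that they lack. The Csf1r condition may make this background too low for microglial genes. Named genes were the 10 with the largest ratio each way among genes with 50 UMIs, the 15 most abundant, the 20 with the highest Fano factor and the most abundant members of each list, leaving out rule, mitochondrial, ribosomal, Gm and Rik genes for the ratios. Of 581 list symbols, 5 are not named as such in the files (Clec7a, Cxcl11, Mx1, Mx2 and Lrrc33). Coordinates of 646 of 646 gene IDs come from a GENCODE annotation of GRCm38. Doublets were called with Scrublet and kept. No column of another sample was used (0). Ratios and intervals were tested on simulated counts.

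Python 3.11.15 with numpy 2.4.6, scipy 1.17.1, pandas 2.3.3, scanpy 1.11.5, leidenalg 0.10.2, igraph 0.11.9 and matplotlib 3.10.9 was used, and R 4.3.3 with edgeR 4.0.16 for the TMM factors alone. Alternatives were other limits of the rule, 2 other scalings, other minimums of UMIs, equal weight per cell and, added after seeing the data, leaving out the monocyte-gene cluster, matching depth in the Tnf comparison, requiring 20 UMIs found or expected in the CD45-negative cells, and leaving out cells low in Malat1.
A few genes that the naming rule picks are not reported here.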

Additional observations from a re-analysis of the deposited data

How the results depend on the processing

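The microglia made up 31.8% of the cells, 36.38% with a homeostatic limit of 10 per 10000, 23.31% with a limit of 25, 26.06% with no Tnf UMI allowed, and 30.28% without the monocyte-gene cluster. In the comparison with low-homeostatic C1q cells, 1419 genes were 2-fold or more higher and 307 lower. These counts became 739 and 507 with the median of ratios, 791 and 478 with TMM scaling, and 753 and 555 in cells with at least 20 Malat1 UMIs per 10000. A minimum of 100 UMIs gave 818 higher and 134 lower, 952 in all. The lower count was 709 with a minimum of 5 UMIs, 599 with each cell weighted equally and 480 without the monocyte-gene cluster. In the Tnf comparison, 374 higher and 286 lower became 585 and 640 (1225 in all) with 5 UMIs, and 52 and 135 (187 in all) with 100 UMIs. Equal cell weights gave 901 higher and 1231 in all, the lower count was 457 without the monocyte-gene cluster, and the higher count 248 at matched depth. Against all other cells, 100 UMIs gave 1576 lower and 2126 in all, and equal weights 1901 higher. Against the CD45-negative cells, 777 higher and 1028 lower became 1570 lower with 5 UMIs, 380 lower and 1157 in all with 100 UMIs, 1674 higher with equal weights, and 44 and 65 (109 in all) over genes with 20 UMIs found or expected in the CD45-negative cells. A higher minimum leaves fewer genes; the cause of the other shifts was not tested.

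Among 1449 values for 38 named genes, 6 changed direction. With the limit at 10, the log2 ratio to low-homeostatic C1q cells was 2.40 for Ccl17, 0.31 for Inhba and 3.90 for Sct, and Sct was at 2.00 with no Tnf UMI allowed. In the Tnf comparison Ccl17 was at -2.54 with the limit at 25 and at -1.51 without the monocyte-gene cluster. Of the rest, 422 moved beyond the counting interval of the reported value and 1021 did not.

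No paired analysis was possible because each group has 1 library, and leaving out a replicate was not possible either. Spread between animals is unknown, so the counting intervals understate the error. The 27 CD45-negative cells limit that comparison to abundant genes.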

Other observations

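Further lists cover innate sensing and metabolism. Of 18 complement genes outside the rule, 3 were 2-fold or more higher in the microglia than in low-homeostatic C1q cells and 4 lower, with a median log2 ratio of -0.10, or -0.34 under TMM scaling. C3, the central complement component gene, was found in 3.68% of the microglia and 5.69% of low-homeostatic C1q cells, against 0.404% of T cells. Of 21 toll-like receptor and inflammasome genes, 3 were higher (Tlr3, Tlr9 and Nlrp1b) and none lower, where 11.3% of all genes were higher. Under TMM scaling 1 of the 21 was higher. Tlr4, the lipopolysaccharide receptor gene, was at 37.8 and 20.7 CPM, and Tlr2, which senses bacterial lipopeptides, at 129 and 114 CPM. Interferon-gamma GTPases and receptors had 4 of 16 higher and 1 lower, against 1 and 1 under TMM scaling.

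The oxidative stress and iron list was lower in sum, at 13720 CPM in the microglia and 21850 CPM in low-homeostatic C1q cells. Fth1 alone held 7771 CPM of the sum in the microglia. Of 21 genes, 3 were lower by 2-fold or more and 1, the iron exporter gene Slc40a1, was higher. Ftl1, the ferritin light chain gene, was at 2219 and 3600 CPM, and Hmox1, which degrades haem, at 53.4 and 86.5 CPM. Glycolysis and hypoxia genes had none of 18 apart by 2-fold, with Ldha, lactate dehydrogenase A, at 393 and 525 CPM.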
